A study of Homo sapiens with 45 samples.

Results

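Aminoacyl-tRNA synthetases are the enzymes that join each amino acid to the transfer RNAs that carry its code. Their genes were followed through palbociclib (PB) treatment of 3 neuroblastoma lines. The genes were found by symbol, as every name of the form [letter]ARS followed by 1, 2 or 3 together with EPRS1, FARSA and FARSB, older names included. The genes described number 36 of the 29159 in the count tables. Of these, 20 encode cytosolic enzymes and 16 encode enzymes imported into mitochondria. GARS1 and KARS1 serve both compartments and were counted with the cytosolic enzymes.

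Each synthetase activates its amino acid with ATP and passes it to the matching tRNA, which then delivers it to the ribosome. In animal cells the cytosol and the mitochondrion run separate translation systems, so most amino acids have a cytosolic enzyme and a second nuclear gene for the mitochondrial one. Several cytosolic enzymes sit in a multi-synthetase complex held together by the scaffold proteins AIMP1, AIMP2 and EEF1E1, and many cytosolic synthetase genes are known targets of ATF4, the transcription factor of the amino acid response.

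RNA was sequenced from SK-N-BE(2)C (MYCN amplified, 1p loss), IMR-32 (MYCN amplified) and SH-SY5Y (ALK mutant), established lines of the adrenergic type. Each line was studied without PB, an inhibitor of the cell cycle kinases CDK4 and CDK6, after 24 h of 1 μM PB, and after 7 d (SK-N-BE(2)C) or 5 d (IMR-32, SH-SY5Y) of PB. The study asked which genes respond early and which respond late as proliferation falls and the cells take on neuronal features. Where 3 values stand together with no line named, the order is that of the lines in this paragraph, and each fold change is a log2 value with its standard error (SE). Each of the 9 groups had 5 libraries made from different passages of the line, so the p-values measure the spread between passages of 1 line. The untreated cells were harvested at the time of the 24 h samples. Time in culture therefore differs too between control and the longer treatment, and 7 d against 5 d cannot be told apart from the line.

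The 45 libraries held 13459219 to 25441812 counts (median 18494528), and at the median depth 1 CPM (the unit of expression used here, a gene's count scaled by the TMM-adjusted library size) stood for 18.49 counts. The marker sums that follow were scaled by plain library size, without TMM. All 9 adrenergic markers were detected in every group, with a summed level in controls of 2955 to 3464 CPM in SK-N-BE(2)C, 2029 to 3081 in IMR-32 and 4687 to 6109 in SH-SY5Y. The summed level of mesenchymal markers (8 of 9 found) was 84.5 to 118, 29.9 to 119 and 188 to 250.9 CPM, with TWIST2 at 0 in the controls of both MYCN-amplified lines and MEOX2 at 0 in those of SK-N-BE(2)C and SH-SY5Y. After the longer treatment that sum was 107 to 155, 15.8 to 40.6 and 258 to 486 CPM, and its part in the synthetase results was not tested. Some libraries stood apart. SK-N-BE(2)C replicates 3, 4 and 5 lay close to each other in controls and at 24 h but not at 7 d, and replicate 5 of the IMR-32 controls was the highest of its group for 25 of the 34 members tested there and the lowest for 4, QARS1 among them (153.9 CPM against 221.5 to 258.3). Counts of called synthetases were 1 at 24 h and 12 at 7 d in SK-N-BE(2)C also with replicates 3 to 5 summed to 1 library. In IMR-32 they were 1 at each time, and 1 and 2 without replicate 5 in every group.

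Of the 36 genes, 35, 34 and 35 passed the filter on low counts, among 14055, 14293 and 14547 genes tested. VARS1, the cytosolic valine enzyme on chromosome 6, passed in no line, with 2 counts over the SH-SY5Y libraries and 0 over the 30 others. VARS2, its mitochondrial counterpart on the same chromosome, had 1 count over the IMR-32 libraries but 56 to 145 per library in SK-N-BE(2)C and 65 to 122 in SH-SY5Y. BAG6 and FLOT1, broadly used genes of that region, were also nearly uncounted, at 0 to 22 and 0 to 10 counts per library, so these zeros were not read as absence of the RNA.

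Levels were compared between genes per kilobase of transcript (RPKM from TMM-scaled counts). In controls the cytosolic enzymes had median levels of 66.8, 58.5 and 72.5 RPKM. The mitochondrial enzymes lay lower, at medians of 16.1, 12.9 and 13.1 RPKM. TARS3, a second threonine enzyme, was the lowest cytosolic gene in each line (5.995, 9.54 and 5.22 RPKM). The highest was SARS1 (serine) in the MYCN-amplified lines (166 and 158 RPKM) and KARS1 (lysine) in SH-SY5Y (119 RPKM). IARS2 (isoleucine) was the highest mitochondrial gene in each line, at 63.2, 50.9 and 88.8 RPKM.

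At 24 h few synthetases moved past both limits of a call, an adjusted p under 0.05 (edgeR quasi-likelihood test, Benjamini-Hochberg adjustment over all genes tested) and a log2 fold change beyond 0.5 in size. Of 35 genes in SK-N-BE(2)C 1 was called, PARS2 (mitochondrial proline enzyme), which was higher, where 21.5% of all genes were called (10.9% higher, 10.6% lower). In IMR-32 YARS1 (tyrosine) was called lower, 1 of 34, where 18.3% of all genes were called (7.87% higher, 10.5% lower). In SH-SY5Y FARSB (a phenylalanine enzyme subunit) was called lower, 1 of 35, against 21.5% of all genes (10.5% higher, 11.0% lower). By the adjusted p alone the members split both ways, with 11 higher and 4 lower, 6 and 5, and 8 and 7. Of all genes 46.8% (23.7% higher, 23.0% lower), 33.1% (17.5%, 15.6%) and 49.2% (26.4%, 22.8%) passed it. All treated libraries lay outside the range of the controls for 15, 6 and 13 members, against 38.9%, 23.9% and 38.3% of all genes. The median size of the members' log2 fold change was 0.18, 0.11 and 0.09, below the 0.27, 0.27 and 0.26 of all genes tested. In IMR-32 the count was 3 without control replicate 1, 4 without control replicate 4 or 24 h replicate 5, and 0 without control replicate 5. In SK-N-BE(2)C it was 2, with QARS1 (glutamine) higher, without control replicate 4 or 24 h replicate 2, and in SH-SY5Y it was 2 without control replicate 3.

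After the longer treatment the calls were nearly all in the lower direction. Of 35 genes in SK-N-BE(2)C 11 were called lower and 1 higher, against 46.8% of all genes called, of which 22.3% lower and 24.5% higher. In IMR-32 EARS2 (mitochondrial glutamate enzyme) was called lower after 5 d and none higher, 1 of 34, where 32.0% of all genes were called (16.6% higher, 15.5% lower). In SH-SY5Y 4 of 35 were called lower and none higher, where 35.9% of all genes were called (18.6% higher, 17.3% lower). By the adjusted p alone 20 were lower and 3 higher, 11 lower and 3 higher, and 16 lower and 6 higher. Of all genes 71.1% (35.3% higher, 35.8% lower), 51.0% (25.5%, 25.6%) and 65.4% (32.9%, 32.5%) passed it. Without overlap with controls were 19, 9 and 15 members, against 53.9%, 38.9% and 47.2% of all genes. The members' median log2 fold change was −0.26, −0.16 and −0.15, while the median over all genes was 0.01, 0.00 and 0.01. The IMR-32 count was 0 without 5 d replicate 4, 2 without control replicate 1 or 4, and 3 without 5 d replicate 5.

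**Figure D1:**
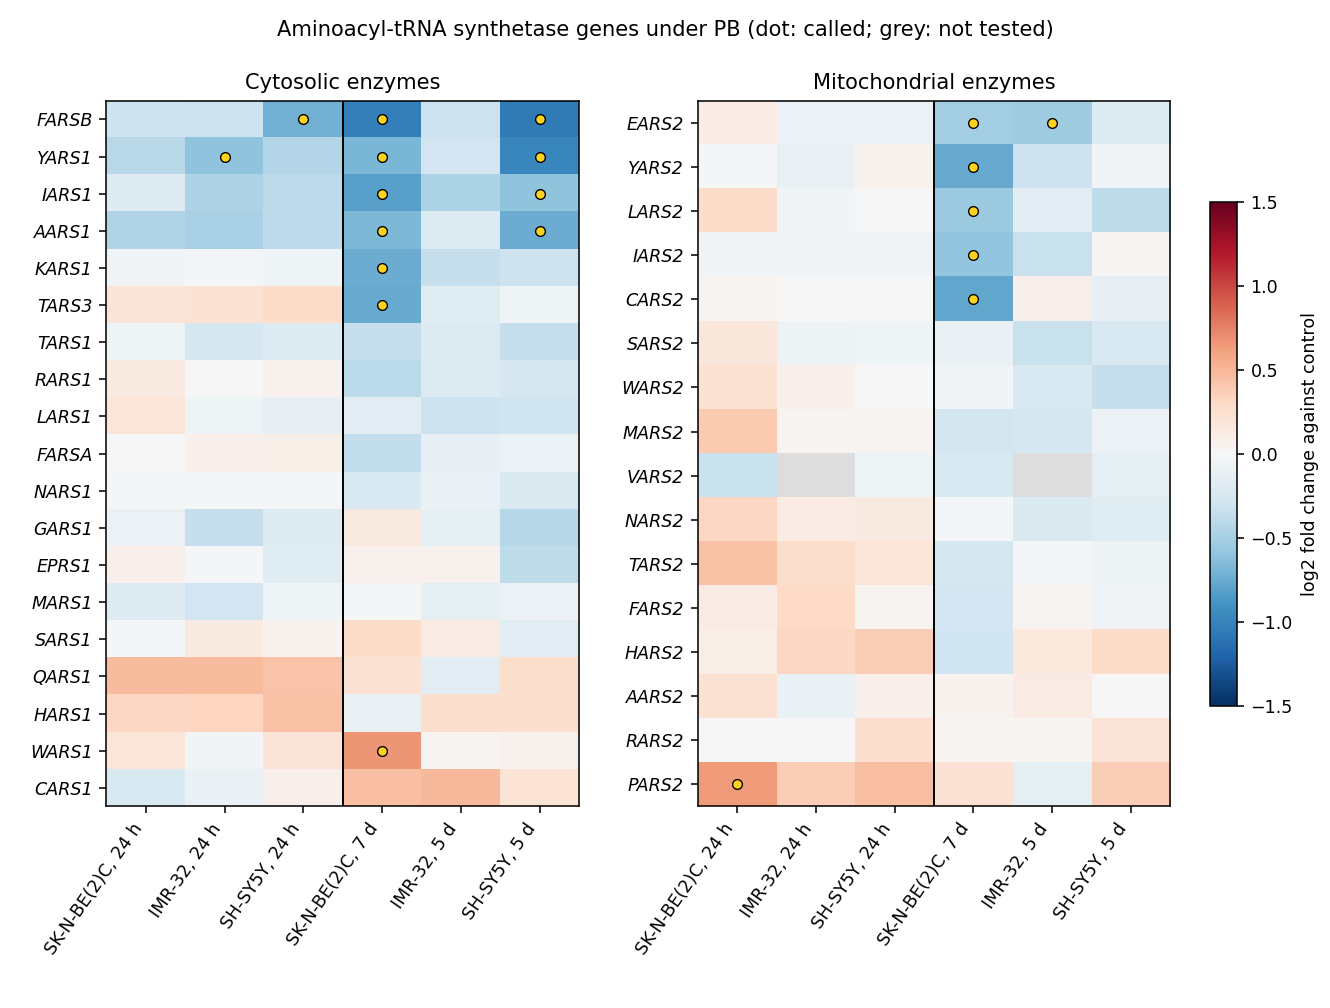
Log2 fold change of each tested synthetase gene against the controls of its line (colour), at 24 h and at the longer time, cytosolic enzymes on the left and mitochondrial enzymes on the right, sorted by the mean change at the longer time. Dots mark called genes and grey cells a gene that was not tested. Each 24 h column holds 1 dot, and at the longer time the SK-N-BE(2)C column holds 12.

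Between the 24 h and the longer samples 13 of 35 members were called in SK-N-BE(2)C, 12 of them lower, against 31.9% of all genes (17.5% higher, 14.4% lower). CARS1 (cysteine) was the member called higher, by 0.68. The members called lower included TARS3, LARS2, CARS2, YARS2, FARSB and TARS2, at log2 fold changes from −0.95 to −0.71. In IMR-32 CARS1 was called higher (0.59) and QARS1 lower (−0.65), 2 of 34 where 19.6% of all genes were called (10.8% higher, 8.86% lower), and the count was 4 without 24 h replicate 2 or 5 d replicate 5. In SH-SY5Y YARS1 alone was called (−0.54), 1 of 35 where 16.7% of all genes were called (10.5% higher, 6.23% lower), and none was called without 5 d replicate 1 or 5 d replicate 2. By the adjusted p alone 24 members were lower and 4 higher between the times in SK-N-BE(2)C, where 59.3% of all genes passed (29.3% higher, 30.0% lower). The counts were 10 and 4 in IMR-32 (34.4%, of which 16.6% higher and 17.8% lower) and 19 and none in SH-SY5Y (43.5%, of which 22.2% higher and 21.4% lower). The libraries of the 2 times did not overlap for 21, 7 and 10 members, against 40.6%, 23.5% and 24.5% of all genes.

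At 24 h the median log2 fold change over all genes was 0.02, 0.06 and 0.04. The cytosolic medians were −0.03, −0.05 and −0.06, with 12, 13 and 11 of 19 genes below zero. The mitochondrial medians were 0.15, 0.01 and 0.04, with 3 of 16, 7 of 15 and 5 of 16 below zero. For 12 amino acids a cytosolic gene was paired with its mitochondrial counterpart, with TARS1 taken for threonine and TARS3 left out, and the cytosolic gene had the lower fold change in 10, 10 and 8. After 7 d or 5 d it did so in 5, 5 and 8, so the count was lower in the MYCN-amplified lines and the same in SH-SY5Y. The longer medians were −0.23, −0.17 and −0.26 for cytosolic genes and −0.27, −0.16 and −0.08 for mitochondrial genes. The difference between the groups of genes was not tested.

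The same course showed in each library's mean of log2(CPM + 1). In SK-N-BE(2)C the mitochondrial mean was 5.47 ± 0.054 (SD, n = 5) in controls, 5.66 ± 0.040 at 24 h and 5.19 ± 0.064 at 7 d, with no overlap between the 3 groups of libraries. The cytosolic mean was 7.57 ± 0.041, 7.54 ± 0.083 and 7.33 ± 0.122, and the 24 h libraries overlapped the controls. In SH-SY5Y the cytosolic mean went from 7.33 ± 0.057 to 7.27 ± 0.053 and 7.06 ± 0.082, with all 5 d libraries below all controls, while the mitochondrial mean was 5.30 ± 0.023, 5.39 ± 0.048 and 5.25 ± 0.098. In SH-SY5Y the cytosolic minus mitochondrial difference was 1.95 to 2.10 in controls, 1.81 to 1.92 at 24 h and 1.75 to 1.85 at 5 d, below all controls at both times. In SK-N-BE(2)C its means without PB, at 24 h and later were 2.10, 1.89 and 2.14, those of IMR-32 1.96, 1.81 and 1.98, so there the longer value was close to that of controls. The IMR-32 values were 7.05 ± 0.115, 6.96 ± 0.093 and 6.94 ± 0.068 for cytosolic and 5.09 ± 0.073, 5.15 ± 0.096 and 4.96 ± 0.085 for mitochondrial genes. Of all counts the cytosolic genes took 0.438% ± 0.0120 in SK-N-BE(2)C controls, 0.4302% ± 0.0227 at 24 h and 0.387% ± 0.0261 at 7 d. CPM values are shares of the RNA sequenced, so less of these RNAs per cell and more of other RNA cannot be told apart.

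**Figure D2:**
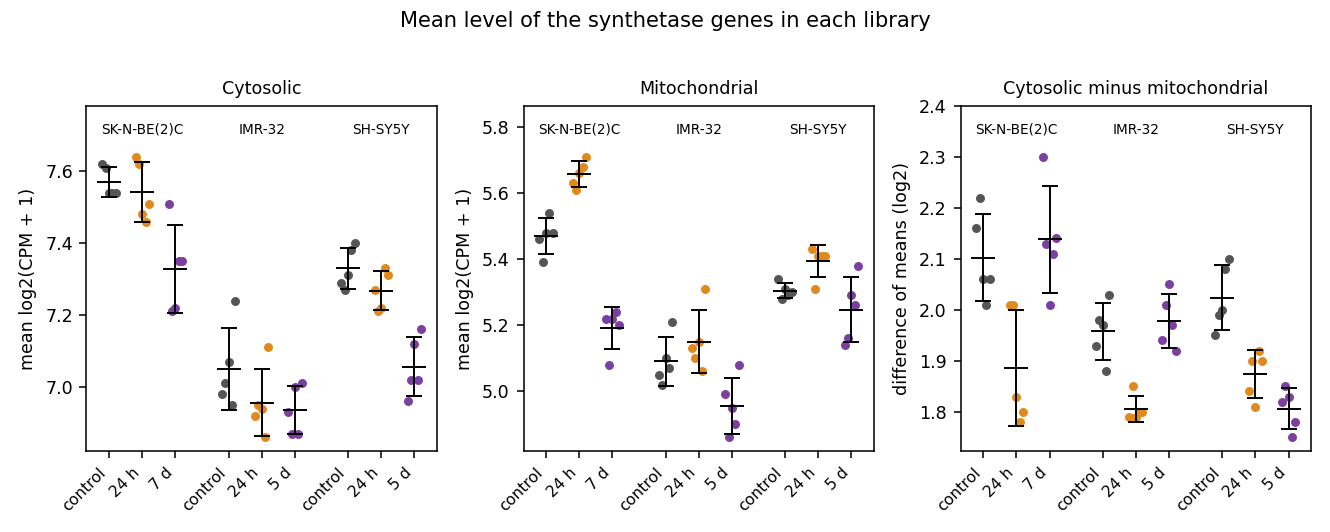
Mean of log2(CPM + 1) over the cytosolic genes, over the mitochondrial genes, and their difference, for each library (points) in the 3 lines without PB, at 24 h and at 7 d or 5 d, with the mean and SD of each group. In SK-N-BE(2)C the mitochondrial points lie above the controls at 24 h and below them at 7 d.

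FARSB and FARSA encode the beta and alpha subunits of the cytosolic phenylalanine enzyme, which works as a heterotetramer with equal numbers of each. FARSB (GRCh37 chr2:223431618-223520811, minus strand) was the cytosolic gene with the lowest fold change at the longer time in SK-N-BE(2)C and SH-SY5Y. Its levels in SK-N-BE(2)C were 209, 206, 187, 192 and 199 CPM in controls, 173, 180.3, 149, 149 and 151 at 24 h, and 116, 75.2, 83.6, 110.0 and 104 at 7 d, with no overlap between the groups. In SH-SY5Y they were 53.8, 52.8, 50.6, 61.0 and 64.8 CPM, then 33.3, 33.0, 33.0, 37.7 and 34.0, then 21.9, 23.7, 28.9, 29.4 and 32.3, again without overlap. The log2 fold changes in SK-N-BE(2)C were −0.31 ± 0.10 at 24 h (edgeR adjusted p = 0.02) and −1.02 ± 0.10 at 7 d (1.9e-07), and in SH-SY5Y they were −0.72 ± 0.10 (5.4e-06) and −1.05 ± 0.10 (3.9e-08). The IMR-32 values were −0.33 ± 0.08 at 24 h (0.0067) and −0.32 ± 0.08 at 5 d (0.0046), with control levels of 74.0 to 93.3 CPM and 5 d levels of 62.5 to 68.3. FARSA did not share the early change. Its log2 fold change at 24 h was −0.01 ± 0.06, 0.07 ± 0.11 and 0.09 ± 0.06 (adjusted p = 0.93, 0.64 and 0.24), and at the longer time −0.36 ± 0.06, −0.12 ± 0.11 and −0.08 ± 0.06 (6.7e-05, 0.38 and 0.24). The FARSB to FARSA ratio in CPM was 0.803 ± 0.0438 (SD, n = 5), 0.652 ± 0.0481 and 0.507 ± 0.0627 in SK-N-BE(2)C without PB, at 24 h and at 7 d. In SH-SY5Y it was 0.266, 0.151 and 0.135, and that of IMR-32 was 0.553, 0.421 and 0.485. The ratio in every treated library of SK-N-BE(2)C (0.435 to 0.706) and SH-SY5Y (0.117 to 0.164) was below that in every control (0.754 to 0.857 and 0.231 to 0.313). CPM is not scaled by transcript length, which is 6761 bases for FARSB and 1811 for FARSA. The size of the ratio is therefore not the balance of the RNAs, and RNA does not give that of the subunits.

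AARS1, YARS1 and IARS1 are cytosolic enzymes for alanine, tyrosine and isoleucine, and at 24 h AARS1 and YARS1 were lower past the adjusted p in all 3 lines and IARS1 in IMR-32 and SH-SY5Y. AARS1 (GRCh37 chr16:70285886-70323610, minus strand) had 384, 363, 345, 356 and 349.6 CPM in SK-N-BE(2)C controls, 292, 269, 247, 240.0 and 263 at 24 h, and 211, 185, 243, 240.3 and 246 at 7 d. Its control levels in IMR-32 were 89.4, 90.5, 93.2, 88.3 and 104 CPM, against 67.2, 59.9, 66.0, 63.5 and 77.3 at 24 h and 78.8, 73.4, 83.9, 67.6 and 99.8 at 5 d. In SH-SY5Y they were 175, 151, 173, 184 and 167 CPM, then 133, 121, 122, 137 and 137, then 95.3, 91.4, 96.8, 116 and 109.6. At 24 h all treated libraries lay below all controls in each line. The log2 fold changes there were −0.46 ± 0.08, −0.48 ± 0.10 and −0.39 ± 0.07 (edgeR adjusted p = 0.00012, 0.0015 and 0.00016), close to the fold change limit and past the adjusted p in all 3 lines. The longer values were −0.68 ± 0.08, −0.21 ± 0.10 and −0.74 ± 0.07 (edgeR adjusted p = 6.5e-07, 0.087 and 5.8e-08), and in IMR-32 the groups overlapped.

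YARS1, like AARS1, had its lowest log2 fold change in IMR-32 at 24 h and in SH-SY5Y at the longer time. Levels in SK-N-BE(2)C went from 182, 176, 150.4, 155 and 153 CPM to 147, 136, 109.5, 111 and 111 at 24 h and to 127, 94.7, 74.5, 106 and 104 at 7 d. In IMR-32 it went from 131, 131, 143, 128 and 185 CPM to 91.1, 95.2, 84.0, 88.2 and 114 at 24 h, and stood at 116, 118, 128, 115 and 113 at 5 d. In SH-SY5Y it went from 139, 121, 136, 149 and 152 CPM to 103, 89.7, 99.2, 112 and 110.4 and then to 57.5, 64.4, 73.7, 72.3 and 86.3. All 24 h libraries lay below all controls, and in SH-SY5Y all 5 d libraries lay below all 24 h libraries. At 24 h the log2 fold changes were −0.41 ± 0.12, −0.61 ± 0.10 and −0.44 ± 0.09 (edgeR adjusted p = 0.011, 0.00035 and 0.00069), and the IMR-32 value was −0.499 and short of the call without control replicate 5. The values after the longer treatment were −0.69 ± 0.12, −0.28 ± 0.10 and −0.98 ± 0.09 (8.8e-05, 0.031 and 6.7e-08). From 24 h to 5 d YARS1 was higher in IMR-32 (0.32 ± 0.10, adjusted p = 0.025) and lower in SH-SY5Y (−0.54 ± 0.09, 0.00023).

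IARS1 was lower than control past the adjusted p in all 3 lines at the longer time. It had 653, 629.9, 591, 567 and 595 CPM in SK-N-BE(2)C controls, against 602, 562, 492, 489 and 502 at 24 h and 429, 299, 279.5, 361 and 352 at 7 d. In IMR-32 the controls held 269.9, 283, 297, 260.3 and 398 CPM, the 24 h libraries 205, 182, 222, 200.4 and 283, and the 5 d libraries 201, 192, 232, 205 and 256. In SH-SY5Y the levels were 337, 310.3, 302, 355 and 384 CPM, then 258, 248, 227, 270.5 and 283, then 194, 215, 215, 244 and 239. The longer treated libraries lay below all controls in each line, and at 24 h only those of SH-SY5Y did. At 24 h the log2 fold changes were −0.20 ± 0.10, −0.47 ± 0.13 and −0.39 ± 0.08 (edgeR adjusted p = 0.11, 0.014 and 0.00045), and at the longer time −0.82 ± 0.10, −0.47 ± 0.13 and −0.61 ± 0.08 (1.3e-06, 0.0078 and 2.3e-06).

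**Figure D3:**
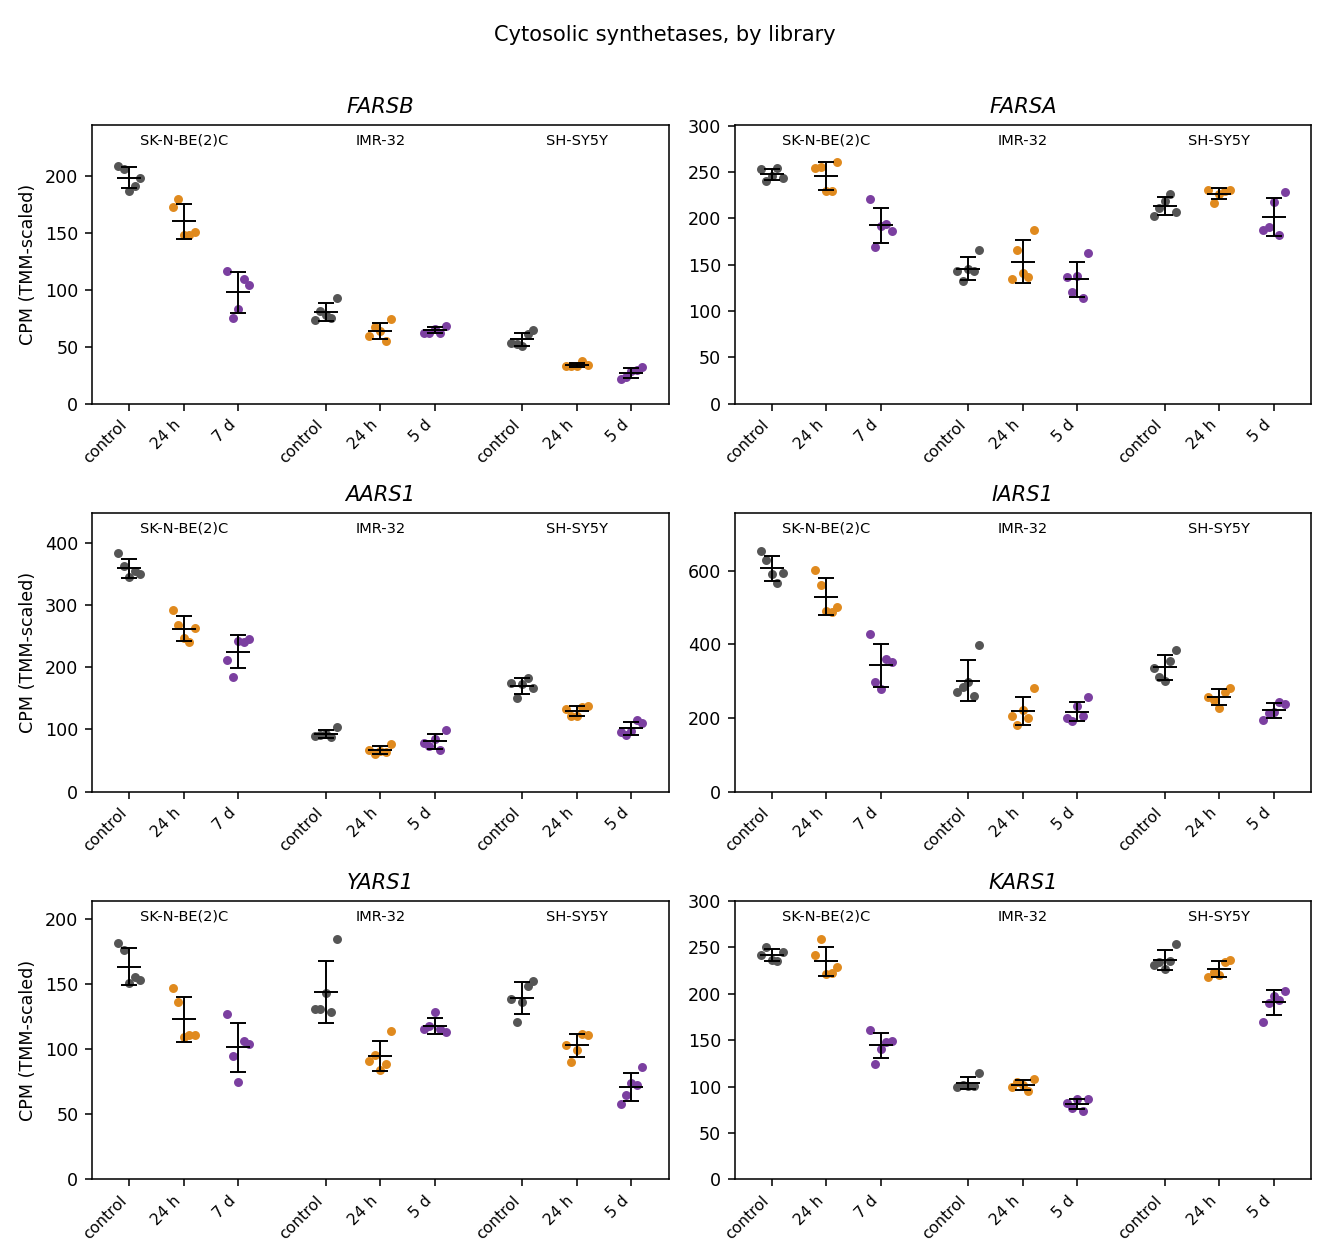
TMM-scaled CPM of FARSB, FARSA, AARS1, IARS1, YARS1 and KARS1 in every library of the 3 lines (points) without PB, at 24 h and at 7 d or 5 d, with group means and SD. FARSB is lower at 24 h where FARSA is not, and the KARS1 libraries at the longer time lie below the controls of each line.

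Of 7 enzymes of the multi-synthetase complex (EPRS1, IARS1, KARS1, LARS1, MARS1, QARS1 and RARS1), none was called at 24 h in any line, where 21.5%, 18.3% and 21.5% of all genes were. After 7 d or 5 d 2, 0 and 1 were called lower and none higher, where 22.3%, 15.5% and 17.3% of all genes were called lower, and their medians were −0.16, −0.21 and −0.29. KARS1, the lysine enzyme of the complex, was lower at the longer time in all 3 lines without overlap, at −0.75 ± 0.06, −0.35 ± 0.07 and −0.31 ± 0.05 (edgeR adjusted p = 2.8e-08, 0.00052 and 7.2e-05). EPRS1, which joins both glutamate and proline to their tRNAs, had values of 0.06, 0.07 and −0.39, and MARS1 (methionine) −0.03, −0.13 and −0.09. QARS1, the glutamine enzyme, moved the other way at 24 h, with all treated libraries above all controls in SK-N-BE(2)C (159.6 to 217 against 116 to 154 CPM) and SH-SY5Y (307 to 344 against 214 to 268). Its log2 fold changes there were 0.47 ± 0.10, 0.48 ± 0.13 and 0.43 ± 0.07 (adjusted p = 0.0013, 0.0089 and 2.8e-05), past the adjusted p and short of the fold change limit in each line.

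Of the complex's scaffold genes, AIMP1 and AIMP2 were lower past the adjusted p at the longer time in each line. At 24 h AIMP1 stood at 0.17, 0.00 and −0.05, AIMP2 at 0.02, −0.05 and −0.14, and EEF1E1 at −0.21, −0.44 and −0.65 (edgeR adjusted p = 0.15, 0.11 and 0.008), the last a call. AIMP1 in SK-N-BE(2)C had 62.5, 61.1, 60.5, 60.4 and 60.9 CPM in controls, 66.2, 70.3, 68.8, 73.8 and 65.4 at 24 h, and 37.9, 30.9, 31.1, 34.6 and 33.7 at 7 d. In IMR-32 it went from 43.5, 49.1, 47.5, 45.9 and 59.0 CPM to 25.7, 24.9, 32.3, 27.9 and 32.0 at 5 d, and in SH-SY5Y from 56.1, 52.9, 53.4, 53.6 and 56.2 to 25.2, 25.03, 36.1, 40.5 and 39.0. The longer treated libraries lay below all controls in each line, with log2 fold changes of −0.86 ± 0.06, −0.78 ± 0.12 and −0.71 ± 0.12 (edgeR adjusted p = 2.4e-09, 9e-05 and 3e-05). AIMP2 stood at −0.53, −0.43 and −0.41 (2.3e-05, 0.026 and 0.00012) and EEF1E1 at −0.80, −0.47 and −0.77 (1.6e-05, 0.073 and 0.0016). Of the 1198 transcript bases of AIMP2, 532 lie over EIF2AK1 exons on the opposite strand. With the counting strand not known, some of its reads could belong to that gene.

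HARS1 and HARS2, the cytosolic and mitochondrial histidine enzymes, stand head to head on chromosome 5 (GRCh37 chr5:140052620-140071122 on the minus strand and chr5:140071015-140078890 on the plus strand), with starts 107 bases apart. In these models the genes overlap, and 83 bases of HARS2 exon lie over HARS1 exons, so with the counting strand not known some reads could belong to either gene. The starts of the RefSeq promoter table (GRCh38.p14) leave 84 bases before both genes. They are shown because this one stretch precedes both RefSeq starts, with the letters CCGGAAGT, or their reverse complement, in capitals at each end (chr5:140691371-140691454, plus strand).
HARS1-HARS2: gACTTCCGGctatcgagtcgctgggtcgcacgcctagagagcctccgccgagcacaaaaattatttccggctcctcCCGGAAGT
CCGGAAGT, the core letters bound by ETS-family factors, was searched on both strands and was chosen after this sequence had been seen. It was in the windows of 8 of the 30 members found in the table (26.7%), namely CARS1, EARS2, HARS1, HARS2, NARS1, PARS2, TARS1 and WARS1. It was in those of 4.95% of 27305 gene symbols, and since HARS1 and HARS2 share the stretch from which the letters were picked, the members' share is partly fixed by that choice. Levels of HARS1 at 24 h were 136, 152, 125.7, 118 and 122 CPM in SK-N-BE(2)C against 104, 114, 104, 108 and 98.0 in controls, and 165, 157, 162, 158 and 155 in SH-SY5Y against 121, 118, 122, 115 and 113. HARS2 went from 63.8, 64.4, 63.1, 61.0 and 53.6 CPM to 80.2, 68.4, 79.4, 86.5 and 79.3 in SH-SY5Y, and in SK-N-BE(2)C its groups overlapped. At 24 h the log2 fold changes of HARS1 were 0.31 ± 0.10, 0.32 ± 0.06 and 0.44 ± 0.06 (edgeR adjusted p = 0.015, 0.00037 and 1.6e-05), and those of HARS2 0.10 ± 0.06, 0.31 ± 0.06 and 0.36 ± 0.06 (0.22, 0.0017 and 0.00012). Later HARS2 stood at −0.30 ± 0.06, 0.16 ± 0.06 and 0.27 ± 0.06 (edgeR adjusted p = 0.00043, 0.049 and 0.0011).

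PARS2 and TARS2, mitochondrial enzymes for proline and threonine, were among the other members higher at 24 h. PARS2 went from 4.75, 4.49, 3.74, 4.91 and 5.15 CPM to 8.29, 6.49, 6.56, 6.61 and 8.02 in SK-N-BE(2)C, without overlap. Its log2 fold changes were 0.64 ± 0.12, 0.36 ± 0.16 and 0.46 ± 0.10 (edgeR adjusted p = 0.00028, 0.084 and 0.0013), and the SH-SY5Y value was 0.515 and a call without control replicate 3. TARS2 stood at 0.44 ± 0.08, 0.26 ± 0.08 and 0.18 ± 0.07 (2e-04, 0.017 and 0.046). At 24 h the members past the adjusted p in all 3 lines were AARS1, FARSB and YARS1 lower and HARS1, QARS1, TARS3 and TARS2 higher. Later they were FARSB, IARS1, KARS1, LARS1, YARS1 and EARS2 lower and CARS1 higher.

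EARS2 loads glutamate on mitochondrial tRNAs for glutamate and for glutamine, and the latter is then converted by the amidotransferase of QRSL1, GATB and GATC. Its SK-N-BE(2)C levels were 90.9, 93.0, 93.3, 91.4 and 87.8 CPM in controls, 91.1, 98.9, 98.1, 107 and 98.7 at 24 h, and 66.3, 62.0, 62.2, 66.5 and 61.5 at 7 d. In IMR-32 control levels of 43.6, 43.5, 49.4, 43.6 and 58.7 CPM went to 32.7, 31.2, 33.0, 29.7 and 38.6 at 5 d, and in SH-SY5Y 57.9, 59.95, 50.01, 56.95 and 60.7 went to 46.7, 45.7, 48.7, 54.4 and 51.7. The 7 d and the IMR-32 5 d libraries lay below all controls, and those of SH-SY5Y overlapped them. The longer log2 fold changes were −0.52 ± 0.05, −0.53 ± 0.14 and −0.21 ± 0.06 (edgeR adjusted p = 7.9e-08, 0.0051 and 0.0064). The IMR-32 call was lost without control replicate 5 (−0.447) or 5 d replicate 4 (−0.493), and the SK-N-BE(2)C call (−0.475) without TMM scaling. QRSL1 was lower at the longer time as well (−0.65, −0.51 and −0.44, adjusted p = 2.2e-07, 0.0013 and 0.00028), GATB stood at −0.77, −0.17 and −0.42 (2.1e-07, 0.14 and 0.00033), and GATC at 0.04, −0.03 and 0.11 (0.49, 0.75 and 0.11). Of the 4238 transcript bases of GATC, 1725 lie over SRSF9 exons on the opposite strand, so some of its reads could belong to SRSF9.

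The remaining genes called at 7 d were called at that time in SK-N-BE(2)C and not in the other lines. CARS2, the mitochondrial cysteine enzyme, went from 60.0, 56.2, 53.0, 63.0 and 55.9 CPM to 41.8, 28.3, 30.9, 35.0 and 32.3 at 7 d, without overlap, a log2 fold change of −0.78 ± 0.09 (edgeR adjusted p = 7.7e-07). In IMR-32 it had 47.5, 43.4, 45.6, 44.4 and 46.3 CPM in controls and 49.7, 41.3, 50.1, 43.9 and 54.5 at 5 d, and in SH-SY5Y 52.6, 52.4, 53.2, 51.5 and 54.2 against 42.1, 44.9, 52.8, 48.1 and 54.9. Both overlapped, at 0.08 ± 0.08 and −0.12 ± 0.07 (0.46 and 0.12). YARS2, the mitochondrial tyrosine enzyme, went from 44.8, 48.4, 44.5, 52.6 and 47.2 CPM to 34.2, 26.1, 23.2, 28.6 and 28.4 in SK-N-BE(2)C (−0.76 ± 0.09, adjusted p = 6.7e-07). Its values in the other lines were −0.32 ± 0.12 (30.0, 27.4, 31.1, 27.5 and 38.8 CPM against 26.3, 21.3, 23.6, 22.9 and 30.2, adjusted p = 0.035) and −0.04 ± 0.09 (24.3, 20.9, 20.7, 20.5 and 22.7 against 20.5, 23.3, 22.4, 17.2 and 22.6, adjusted p = 0.7).

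TARS3 was higher at 24 h and lower at 7 d in the same line. It had 21.9, 21.4, 20.4, 19.7 and 21.0 CPM in SK-N-BE(2)C controls, 24.1, 23.7, 23.3, 22.1 and 25.9 at 24 h, and 13.7, 11.1, 11.4, 13.2 and 12.3 at 7 d, 3 groups that did not overlap. In IMR-32 it had 34.7, 34.2, 31.2, 33.0 and 32.9 CPM, then 40.9, 35.7, 38.0, 41.3 and 36.6, then 29.0, 30.1, 30.7, 30.4 and 26.4, and in SH-SY5Y 16.4, 18.4, 18.1, 19.5 and 18.5, then 20.4, 20.8, 22.5, 24.6 and 21.9, then 16.1, 17.7, 17.6, 18.2 and 17.4. All 24 h libraries lay above all controls in each line. The log2 fold changes at 24 h were 0.19 ± 0.07, 0.21 ± 0.07 and 0.28 ± 0.07 (edgeR adjusted p = 0.037, 0.025 and 0.0036), and at the longer time −0.76 ± 0.07, −0.18 ± 0.07 and −0.06 ± 0.07 (9.8e-08, 0.037 and 0.45).

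WARS1, the cytosolic tryptophan enzyme, was the member called higher at 7 d. Its SK-N-BE(2)C levels were 140.2, 156, 158, 157 and 161 CPM in controls, 174, 189.6, 176, 167 and 171 at 24 h, and 309, 225, 189, 240.1 and 259 at 7 d, all above the controls (0.66 ± 0.09, edgeR adjusted p = 9.5e-06). In IMR-32 and SH-SY5Y it stood at 0.04 ± 0.09 and 0.06 ± 0.07 (0.71 and 0.44). CARS1, the cytosolic cysteine enzyme, was higher at the longer time past the adjusted p in all 3 lines, at 0.46 ± 0.09, 0.48 ± 0.09 and 0.20 ± 0.08 (0.00032, 0.00059 and 0.026), and in IMR-32 it was a call (0.60) without replicate 5 in every group. IARS2 and LARS2, mitochondrial enzymes for isoleucine and leucine, were called lower in SK-N-BE(2)C, at −0.59 ± 0.05 and −0.56 ± 0.08. Short of the fold change limit but without overlap with controls, IARS2 was lower in IMR-32 (−0.33 ± 0.07, edgeR adjusted p = 0.00089) and LARS2 in SH-SY5Y (−0.38 ± 0.06, 2.2e-05). The LARS2 change was called different between no pair of lines.

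The other members were called in no comparison with control. Among cytosolic enzymes, GARS1 in SH-SY5Y (−0.43 ± 0.06, edgeR adjusted p = 1.5e-05), RARS1 (arginine) in SK-N-BE(2)C (−0.41, 6.8e-06) and EPRS1 in SH-SY5Y (−0.39, 3.1e-05) were farthest below control. TARS1 (threonine) stood at −0.35 in SK-N-BE(2)C (0.0038). LARS1 (leucine) stood at −0.16, −0.32 and −0.29 (0.035, 0.013 and 0.0011), NARS1 (asparagine) at −0.23, −0.10 and −0.22, and SARS1 at 0.27, 0.12 and −0.17. Among mitochondrial enzymes, SARS2 stood at −0.10, −0.34 and −0.23, WARS2 at −0.05, −0.23 and −0.35, MARS2 at −0.27, −0.25 and −0.09, and NARS2 at −0.03, −0.21 and −0.19. FARS2 stood at −0.29, 0.04 and −0.05, RARS2 at 0.03, 0.03 and 0.19, and AARS2 at 0.06, 0.12 and −0.01. VARS2 had −0.23 after 7 d in SK-N-BE(2)C and −0.15 after 5 d in SH-SY5Y. MARS2 was the farthest of these above control at 24 h, at 0.39 ± 0.08 in SK-N-BE(2)C (adjusted p = 0.00063) against 0.02 and 0.04 in the other lines.

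The difference in response between lines was itself tested in a fit of all 45 libraries. At 24 h none of 35 members was called by edgeR between SK-N-BE(2)C and IMR-32 (4.49% of all genes), between SK-N-BE(2)C and SH-SY5Y (2.04%) or between IMR-32 and SH-SY5Y (3.07%), and DESeq2 called 0 as well. At an unadjusted p under 0.05 the counts were 6, 8 and 4, and by the adjusted p alone they were 0, 1 and 0.

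In the longer response 4 of 35 members were called between SK-N-BE(2)C and IMR-32 (23.9% of all genes), 7 of 35 between SK-N-BE(2)C and SH-SY5Y (21.2%), and 3 of 35 between IMR-32 and SH-SY5Y (20.8%). The first count was 7 without replicate number 5. The changes of TARS3 and CARS2 were lower in SK-N-BE(2)C than in both other lines, by −0.55 ± 0.09 and −0.82 ± 0.11 against IMR-32 (edgeR adjusted p = 9.6e-06 and 3.1e-07) and by −0.73 ± 0.09 and −0.69 ± 0.11 against SH-SY5Y (1.1e-07 and 1e-05). WARS1 was higher there than in both, by 0.65 ± 0.12 and 0.57 ± 0.12 (7.9e-05 and 0.00042). IARS2, YARS2 and HARS2 differed between SK-N-BE(2)C and SH-SY5Y, by −0.63 ± 0.07, −0.75 ± 0.14 and −0.61 ± 0.09, and GARS1 (glycine) by 0.53 ± 0.12, from changes of 0.14 and −0.43. FARSB fell less in IMR-32 than in SK-N-BE(2)C or SH-SY5Y (differences of 0.67 or 0.68 in size, adjusted p = 0.00014 and 0.00019), and YARS1 fell less in IMR-32 than in SH-SY5Y (0.64 ± 0.15, 0.0016). PARS2 differed between IMR-32 and SH-SY5Y by −0.56 ± 0.17 (edgeR adjusted p = 0.013). Between SK-N-BE(2)C and SH-SY5Y the FARSB difference was 0.00 ± 0.13 and that of AARS1 was 0.03 ± 0.12.

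**Figure D4:**
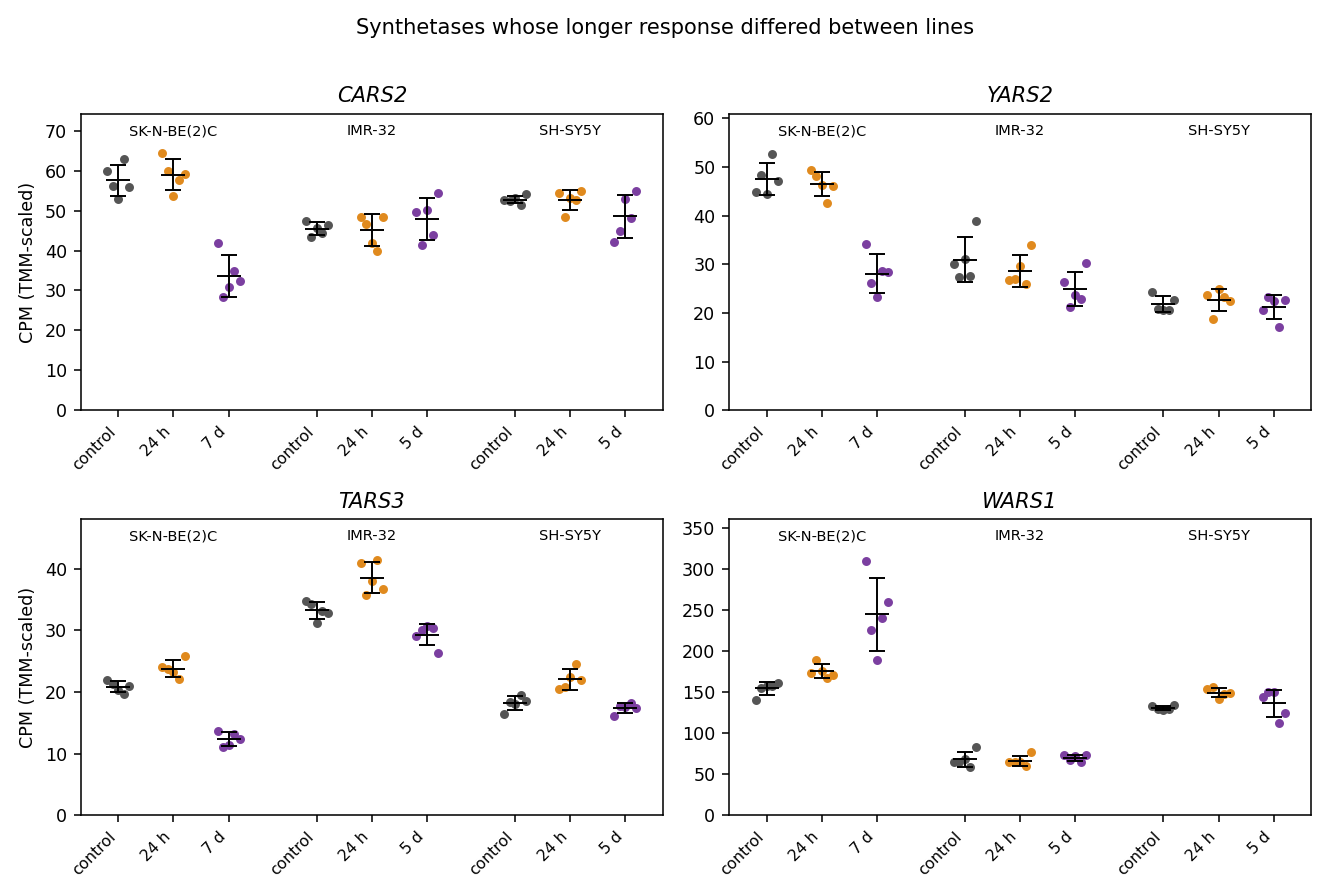
TMM-scaled CPM of CARS2, YARS2, TARS3 and WARS1 in every library of the 3 lines (points) without PB, at 24 h and at 7 d or 5 d, with group means and SD. In SK-N-BE(2)C the 7 d points of CARS2, YARS2 and TARS3 lie below all controls and those of WARS1 above them, while in the other lines the longer points of CARS2, YARS2 and WARS1 overlap the controls.

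ATF4 was measured beside its known synthetase targets. Its RNA levels in SK-N-BE(2)C were 373, 362, 363, 357 and 366 CPM in controls, 302, 274, 284, 296 and 278 at 24 h, and 420.0, 521, 521, 429.6 and 428 at 7 d, 3 groups without overlap. In IMR-32 they were 201, 204, 247, 197 and 323 CPM, then 161, 216, 181, 165 and 193, then 219.6, 228, 221, 224 and 215. In SH-SY5Y they were 148, 156, 165, 174 and 186 CPM, then 108, 106, 118, 143 and 128, then 130.0, 139, 141, 116 and 130.3. The 24 h values were lower than control by −0.35 ± 0.06, −0.36 ± 0.12 and −0.46 ± 0.08 (edgeR adjusted p = 0.00032, 0.035 and 0.00016), and the longer values were 0.35 ± 0.06, −0.08 ± 0.12 and −0.34 ± 0.08 (0.00012, 0.6 and 0.0015). ATF4 is largely controlled at translation, which RNA levels do not show.

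Of 12 synthetase genes listed as ATF4 targets (AARS1, CARS1, EPRS1, GARS1, IARS1, LARS1, MARS1, NARS1, SARS1, TARS1, WARS1 and YARS1), none, 1 and none were called at 24 h, the 1 lower, against 21.5%, 18.3% and 21.5% of all genes. The longer counts were 3 lower and 1 higher in SK-N-BE(2)C, none in IMR-32 and 3 lower in SH-SY5Y, below the 46.8%, 32.0% and 35.9% of all genes called, with medians of −0.09, −0.14 and −0.32. These genes did not move as a block at 7 d, where AARS1, IARS1 and YARS1 were called lower, WARS1 was called higher, and CARS1 and SARS1 stood at 0.46 and 0.27. Of 31 other ATF4 targets, 30, 29 and 30 were tested, and at the longer time 7, 6 and 3 were called higher and 10, 7 and 11 lower, where 24.5%, 16.6% and 18.6% of all genes were called higher and 22.3%, 15.5% and 17.3% lower. At 24 h in SK-N-BE(2)C 3 of the 30 were called higher and 6 lower, where 10.9% and 10.6% of all genes were.

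Promoter windows from 250 bases before to 50 after each start were taken from RefSeq (GRCh38.p14) for 30 of the 36 members. LARS1, TARS3, VARS1, YARS1, AARS2 and VARS2 had no entry there. The letters TGATGNAA, the shape of the composite element bound by ATF4 with C/EBP proteins, were searched on both strands and were in the windows of 8 of 30 members (26.7%) against 4.46% of 27305 gene symbols. The 8 were AARS1, CARS1, GARS1, IARS1, MARS1, NARS1 and TARS1 among cytosolic enzymes and YARS2 among mitochondrial ones. A cytosolic gene lower at 24 h, a cytosolic gene lower in every line at the longer time, a gene of both compartments and the mitochondrial holder are shown, each on its gene's strand with the matching letters, or their reverse complement, in capitals.
AARS1 (chr16:70289661-70289718, minus strand): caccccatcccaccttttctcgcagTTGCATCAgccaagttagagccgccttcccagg
IARS1 (chr9:92293698-92293735, minus strand): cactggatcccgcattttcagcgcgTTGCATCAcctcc
GARS1 (chr7:30594820-30594877, plus strand): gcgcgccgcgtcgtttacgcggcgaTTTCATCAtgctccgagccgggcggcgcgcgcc
YARS2 (chr12:32756062-32756119, minus strand): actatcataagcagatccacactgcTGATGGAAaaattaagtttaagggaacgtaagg
At 24 h the median log2 fold change of the 8 was −0.14, −0.27 and −0.13, with 8, 8 and 6 of 8 below zero. The other 22 members with a window had medians of 0.13, 0.02 and 0.05, with 5, 9 and 7 below zero. All of the 8 but YARS2 are cytosolic, while most of the 22 are mitochondrial, so letters and compartment cannot be told apart in these medians. Cytosolic genes without the letters were not taken alone. The longer medians were −0.29, −0.17 and −0.28 for the 8 and −0.27, −0.14 and −0.10 for the 22. A match of letters does not show that a factor binds there, and the difference between these gene groups was not tested.

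MYCN, a transcription factor known to bind E-box letters such as CACGTG, had 3371 to 4537 CPM in SK-N-BE(2)C controls, 4427 to 5130 at 24 h and 1815 to 2581 at 7 d, with the 7 d libraries below all others (−0.71 ± 0.10 against control, edgeR adjusted p = 5.7e-06). In IMR-32 it had 1314 to 1756 CPM in controls, 2179 to 2561 at 24 h (0.58 ± 0.09, 0.00011) and 1865 to 2210 at 5 d (0.32 ± 0.09, 0.0056). In SH-SY5Y, which carries no MYCN amplification, it had 3.09 to 12.7 CPM in any library. MYC, which binds the same letters, went the other way at 7 d in SK-N-BE(2)C from a far lower level, at 0.0899 to 0.453 CPM in controls and 1.09 to 4.37 at 7 d (3.05 ± 0.47, edgeR adjusted p = 2.4e-05). In SH-SY5Y it had 81.2 to 90.8 CPM in controls and 26.8 to 84.2 at 5 d (−0.47 ± 0.25, adjusted p = 0.11), and in IMR-32 it was not tested. CACGTG was in the windows of 4 of 30 members (13.3%), CARS2, EARS2, IARS1 and MARS2, against 8.77% of all symbols. At 7 d in SK-N-BE(2)C 3 of these were called lower, against 11 of all 35 members and 22.3% of all genes, and MARS2 stood at −0.27 ± 0.08. In IMR-32 at 5 d the values of CARS2, EARS2, IARS1 and MARS2 were 0.08, −0.53, −0.47 and −0.25 (edgeR adjusted p = 0.46, 0.0051, 0.0078 and 0.044). In SH-SY5Y at 5 d the same genes stood at −0.12, −0.21, −0.61 and −0.09, and IARS1 was called lower. The EARS2 match is shown because that gene was lower at the longer time in every line, with the E-box in capitals.
EARS2 (chr16:23557351-23557390, minus strand): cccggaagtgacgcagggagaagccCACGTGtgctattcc

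The changes of the members could be set side by side between lines, which share no libraries. Across 34 or 35 genes Pearson's r of the log2 fold changes at 24 h was 0.80 between SK-N-BE(2)C and IMR-32, 0.73 between SK-N-BE(2)C and SH-SY5Y and 0.86 between IMR-32 and SH-SY5Y, against 0.76, 0.81 and 0.79 across all genes tested in both lines. For the longer treatment it was 0.56, 0.55 and 0.51, against 0.57, 0.69 and 0.51. Genes are not independent replicates, and these values describe the lists only.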

How the data were processed

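Counts of reads per gene were deposited by the authors for 15 libraries of each line. Per the labels and the study's methods, RNA was polyA selected, and libraries were made with a directional kit and sequenced in pairs. Reads were trimmed with Trim Galore 0.6.4 and aligned to hg19 with STAR, version 2.6.1d by the labels. The study's list of software names another release of STAR. No source used here gives the counting strand, so reads of genes that overlap on opposite strands cannot be told apart. The deposited tables of CPM and of the authors' DESeq2 1.32.0 output (fold changes and p-values) were not used, and 0 columns of other samples were present.

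Each line was fitted on its own with edgeR 4.0.16 (R 4.3.3, limma 3.58.1): filterByExpr (minimum count 10, total 15, share 0.7), TMM scaling, and the robust quasi-likelihood test on 3 groups. All p-values printed are from edgeR, Benjamini-Hochberg adjusted over all genes tested. Genes were called where the adjusted p was under 0.05 and the log2 change exceeded 0.5 in size. Differences of response between lines came from 1 fit of all 45 libraries, given as the first line minus the second. The biological coefficient of variation was 19.9% in IMR-32, against 11.2% in SH-SY5Y and 13.8% in SK-N-BE(2)C. The 90 pairs of replicates differed by more than sampling noise (chi-square per degree of freedom of 1.69 to 86.9), and none was counted as 1 sample. The steps were tested on simulated data.

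Of the 38 genes that matched the rule on symbols 2 are not reported here, and they entered the fits across all genes. The members, the gene lists and the tests were chosen with earlier results of these data known. Library values were given for the members called alike in 2 or more lines with the largest mean change, those called in opposite directions, and those with the largest difference between lines. FARSA, HARS1, HARS2, PARS2, WARS1, QARS1, QRSL1, GATB and GATC were added with their values seen. Gene positions are GENCODE v44lift37 (GRCh37), and promoter windows RefSeq (GRCh38.p14). The lowest correlation of same-numbered libraries' deviations from their group means was 0.114 in IMR-32, 0.109 in SH-SY5Y and 0.048 in SK-N-BE(2)C (0.243 between control and 24 h). By this measure libraries looked paired in the first 2 lines, and in the last between control and 24 h only. The printed SEs and p-values come from fits that left this pairing out, apart from an AARS2 value named as a block fit. The alternatives tried were DESeq2 1.42.0, other scalings, other filters, the replicate number as a block, and leaving out each library.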

Additional observations from a re-analysis of the deposited data

Results flagged for a closer look

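Of 108 groups of 5 libraries, checked for 12 members, 7 held a value far from the others, and chance alone flags about 1 in 20. In the IMR-32 controls replicate 5 stood above the rest for IARS1 (398.2 CPM against 260.3 to 296.9) and YARS1 (184.6 against 128.4 to 143.1). FARSB in SH-SY5Y at 24 h had 37.66 CPM in replicate 4 against 33.01 to 34.04. In SK-N-BE(2)C controls WARS1 was low in replicate 1 (140.2 CPM against 155.5 to 161.2). At 24 h in IMR-32 HARS2 was high in replicate 2 (55.17 against 45.51 to 48.22) and PARS2 in replicate 5 (14.07 against 8.387 to 9.749). PARS2 was also high in replicate 5 of SH-SY5Y at 5 d (16.38 against 12.03 to 13.07).

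The response to PB differed between lines for the members that follow, each by a test of the difference itself (edgeR, first line minus second). In the longer response SK-N-BE(2)C and IMR-32 differed for FARSB (-0.67), TARS3 (-0.55), WARS1 (0.65) and CARS2 (-0.82). Between SK-N-BE(2)C and SH-SY5Y it was GARS1 (0.53), TARS3 (-0.73), WARS1 (0.57), CARS2 (-0.69), HARS2 (-0.61), IARS2 (-0.63) and YARS2 (-0.75). Between IMR-32 and SH-SY5Y it was FARSB (0.68), YARS1 (0.64) and PARS2 (-0.56). The days of treatment differ with the line in the first 2 comparisons of longer responses, and their part cannot be told apart.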

How the results depend on the processing

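Across the alternatives other than leaving out a library, 77 of 96 counts of called members stayed within 1.5 times the value given, 529 of 544 gene values kept direction and call, and 102 of 102 medians moved by less than the spread. That spread was the largest group SD of the class mean in the line, 0.122, 0.115 and 0.082 for cytosolic and 0.064, 0.096 and 0.098 for mitochondrial genes. Most 24 h medians are smaller in size than it, so they could change sign within it, and this count does not show that they were stable. Without the fold change limit the 24 h counts were 15, 11 and 15, the longer counts 23, 14 and 22, and those between the times 28, 14 and 19. The counts of differing responses were then 12, 13 and 9 for the longer treatment and 1 between SK-N-BE(2)C and SH-SY5Y at 24 h. At 24 h library size alone called 2 members in SK-N-BE(2)C. It called 3 in IMR-32, as did DESeq2, and RLE size factors called 2. Library size alone called 0 between 24 h and 5 d in SH-SY5Y. Without replicate 5 in every IMR-32 group 2 members were called after 5 d. With the replicate block 1, 1 and 1 members were called at 24 h, those called later numbered 12, 1 and 4, and no call count changed with the block.

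Leaving out 1 library at a time gave 1 to 2, 0 to 4 and 1 to 2 calls at 24 h, 12 to 12, 0 to 3 and 4 to 4 at the longer time, and 13 to 15, 2 to 4 and 0 to 1 between the times. When a replicate number was left out of all groups at once, differing responses ranged from 0 to 0 (24 h) and 3 to 7 (longer) between SK-N-BE(2)C and IMR-32. They ranged from 0 to 0 and 7 to 7 between SK-N-BE(2)C and SH-SY5Y, and from 0 to 0 and 3 to 4 between the last pair. Of 270 medians 270 moved by less than the same spread, with the same limit for the small 24 h medians.

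Values close to 0 and not called changed sign, and the cause was not tested. With library size alone FARSA and YARS2 in SK-N-BE(2)C at 24 h were 0.024 and 0.003, CARS2 in SH-SY5Y at 24 h 0.009, and TARS3 and YARS2 there at 5 d 0.006 and 0.026. With replicates 3 to 5 of SK-N-BE(2)C summed, FARSA and YARS2 were 0.020 and 0.017. Leaving out libraries moved FARSA from -0.031 to 0.016 and YARS2 from -0.052 to 0.009 in SK-N-BE(2)C at 24 h. In IMR-32 at 24 h the ranges were -0.011 to 0.123 for FARSA, -0.045 to 0.019 for KARS1, -0.104 to 0.037 for WARS1, -0.039 to 0.029 for CARS2 and -0.216 to 0.006 for EARS2. WARS1 ranged from -0.005 to 0.125 at 5 d there. The SH-SY5Y ranges were -0.029 to 0.008 for CARS2 and -0.009 to 0.091 for YARS2 at 24 h, and -0.084 to 0.024 for YARS2 at 5 d.

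The main limits are the spread between passages, highest in IMR-32, the fold change limit near which several values lie, and nearly uncounted genes (VARS1 in each line, VARS2 in IMR-32).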

Other observations

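Other listed ATF4 targets, among them genes of amino acid synthesis and transport, were measured in the same fits, and triples of values keep the order of lines used throughout. PHGDH, which opens serine synthesis, was called lower in every comparison with control, with 24 h values of −1.08, −1.61 and −1.31 and longer values of −1.46, −0.92 and −1.54. SLC1A5, a transporter of glutamine and other neutral amino acids, was called lower likewise (−1.04, −1.17 and −1.06, then −1.57, −0.97 and −1.22). PSAT1, SHMT2 and MTHFD2, enzymes of serine and one-carbon metabolism, were called lower after the longer treatment in all lines (−0.64, −0.78 and −0.75 for PSAT1, −0.55, −0.72 and −1.003 for SHMT2, −0.66, −0.61 and −1.16 for MTHFD2). Others of that list were higher. DDIT4, an inhibitor of mTORC1, was called higher at 24 h (1.20, 1.15 and 1.34), and CHAC1, which degrades glutathione, after the longer treatment in SK-N-BE(2)C (1.75) as in IMR-32 (1.58).

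Genes acting on tRNA around the synthetases and genes of elongation were measured as well. Of 14 tested helpers of charging and tRNA transport, 4, 2 and 1 were called lower at the longer time (22.3%, 15.5% and 17.3% of all genes) and none higher, with medians of −0.17, −0.16 and −0.10. XPOT, which exports tRNA from the nucleus, stood at −0.65, −0.63 and −0.49. Of 9 cytosolic elongation genes, 4, 1 and 3 were called higher and 3, 0 and 1 lower, where 46.8%, 32.0% and 35.9% of all genes were called. EEF2, the translocation factor, was called higher at 24 h in each line (0.57, 0.72 and 0.55), and EEF1A2, the tRNA delivery factor of neurons and muscle, at the longer time (0.79, 0.81 and 0.77). EIF5A, a factor that helps ribosomes past stalling residues, stood at −0.99, −0.44 and −0.74 and was called lower in the first and the last line. Of 9 mitochondrial elongation genes 1, 0 and 0 were called lower and none higher, against the shares called lower given for the helpers.

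AARS2 in SK-N-BE(2)C fell into separate ranges by replicate. The 6 libraries of replicates 1 and 2 held 136.6 to 184.0 CPM and the 9 libraries of replicates 3, 4 and 5 held 239.0 to 313.7. Within each replicate number the 24 h library was above the control (149.3 and 170.6 CPM, 136.6 and 159.1, 268 and 300, 271.2 and 311.8, 248 and 313.7), with a log2 fold change of 0.23 ± 0.27 (edgeR adjusted p = 0.51). With the replicate number as a block, a fit added after seeing these values, it was 0.22 ± 0.08 (edgeR adjusted p = 0.03), short of the fold change limit.

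Several synthetase genes start close to a gene on the opposite strand. Within 1000 bases these pairs were AARS1 with DDX19B (44 bases), EARS2 with UBFD1 (10), RARS2 with ORC3 (39), FARS2 with LYRM4 (94), HARS1 with HARS2 (107), SARS2 with MRPS12 (181), WARS1 with WDR25 (387), CARS2 with ING1 (867) and KARS1 with TERF2IP (870).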
